A study of Mus musculus with 4 samples.

Results

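The antioxidant and glutathione genes described here are the genes of the transcription factor NRF2, of its inhibitor KEAP1 and of glutathione synthesis. Also included are genes of the enzymes that use glutathione or thioredoxin to clear peroxides and reactive compounds. The set further holds the superoxide dismutase genes Sod1 and Sod2, the catalase gene Cat and the quinone reductase gene Nqo1. All were chosen by a rule on symbols, set with earlier results of these data known. It covers cytosolic and microsomal glutathione transferases, glutathione peroxidases, peroxiredoxins and 13 single genes, with pseudogene names left out. The rule found 39 genes among the 21677 gene symbols of the table. The RNA came in bulk from CT26, a colon carcinoma line of the mouse. Control cells gave the 2 libraries S17 and S19, and iRhom1 KO cells gave S18 and S20. All cells grew in the same medium with fetal bovine serum, with no further treatment. The KO cells carry a disruption of Rhbdf1, the gene of the inactive rhomboid iRhom1, made with a puromycin-selectable lentiviral CRISPR plasmid and selected as a single clone. The study also made a control vector line with Cas9 but no guide, and the labels of the libraries say only Control. A figure legend of the study sets the RNA-seq of KO cells against WT cells. If Control is WT, the vector, Cas9, selection and cloning all coincide with the knockout. An effect of the knockout, an effect of these steps and a difference between clones cannot be told apart in this design. Neither can fewer cells that express a gene and less RNA per cell.

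Under resting conditions KEAP1 holds NRF2 and, together with the CUL3 ubiquitin ligase, has it degraded. Oxidants and electrophiles modify KEAP1, NRF2 then accumulates, pairs with small MAF proteins and binds antioxidant response elements in the promoters of its target genes. Among the known targets are both subunits of glutamate cysteine ligase, the enzyme that limits glutathione synthesis, and Nqo1, Prdx1, Srxn1, Txnrd1 and several glutathione transferases. Tumour cells use this system against the peroxides and drug adducts that they form.

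Values are FPKM, fragments of a gene scaled to its transcript length and to the mapped fragments of the library, so levels can be set side by side between genes. Depth, estimated within a preset range from the smallest steps among low values, was 49800000 to 53200000 fragments in each library. The FPKM listed for Rhbdf1 (0.538 and 0.890 in Control, 0.0940 and 0.0584 in iRhom1 KO) are identical to those of the unrelated gene Apobec2 in 3 of the 4 libraries, and were not used as a check of the knockout. Epithelial markers with a row (5 of 8) summed to 18.8 and 19.9 FPKM in Control and 38.0 and 36.8 FPKM in iRhom1 KO, with Krt8 at 0 to 0.0278 FPKM in Control and 6.80 to 7.03 FPKM in iRhom1 KO. Of the leukocyte markers 4 of 8 had a row. Ptprc and Csf1r stayed near 0, with Ptprc at no more than 0.00630 FPKM. Lyz2 lay at 1.82 and 2.02 FPKM in Control and 2.24 and 1.42 FPKM in iRhom1 KO. Cd68 lay at 3.36 FPKM in both Control libraries and 0.677 and 0.830 FPKM in iRhom1 KO. The endothelial markers with a row (2 of 5) stayed near 0. The fibroblast markers with a row (4 of 6) summed to 42.5 and 39.0 FPKM in Control and 52.4 and 57.6 FPKM in iRhom1 KO. Of these, Pdgfra alone was lower in iRhom1 KO, at 0.761 and 0.723 FPKM against 1.05 and 0.916 FPKM in Control. The part of these differences in the results was not tested.

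In iRhom1 KO cells more of the antioxidant and glutathione genes fell than rose. Prdx1, Gsto1 and Gsta1 fell by over 1 on the log2 scale, while Mgst3 rose and the regulators Nfe2l2 and Keap1 were not called. A gene was tested when either group averaged 1 FPKM or more, which held for 32 of the 39 members. Of these, 11 were lower and 3 were higher at an adjusted p under 0.05 from limma, against 21.9% lower and 10.7% higher (32.6% in either direction) among all 10271 genes tested. The shares of the members were 34.4% and 9.38%. Their median log2 fold change was -0.17, and that of all genes tested was -0.10. With trimmed mean scaling of the libraries 8 members were lower and 5 higher, and with quantile normalization 7 and 4. The same scalings moved the calls over all genes from 1096 higher and 2254 lower to 1693 and 1623, and to 1605 and 1553. In 28 of the 32 members the FPKM of the groups did not overlap (10 higher, 18 lower), against 72.0% of all genes tested (25.9% higher, 46.1% lower). The 7 members below the level for testing ranged from 0 to 0.714 FPKM and were Gsta2, Gsta3, Gstm3, Gstm6, Gstm7, Gstt2 and Mgst1. Of the tested members, Gsta1 passed the level in Control only, so its call partly follows from that filter. Another 13 annotated members of these families, among them Gpx2, Gpx3, Gstt1 and Gstk1, have no row and were not analysed here.

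**Figure D1:**
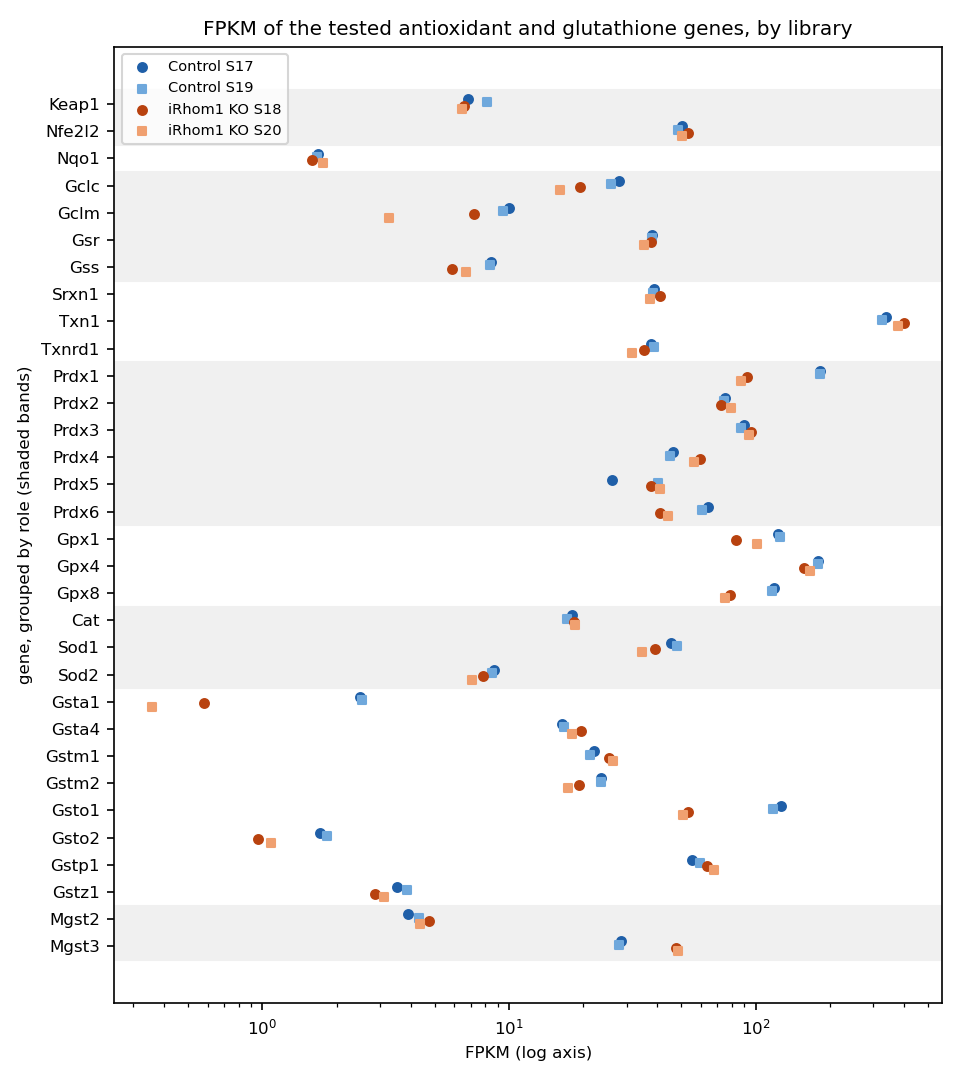
FPKM on a log axis of each of the 32 tested genes (rows, in shaded bands by role). Blue points are the 2 Control libraries and orange points the 2 iRhom1 KO libraries. Prdx1, Gsto1, Gpx8, Prdx6 and Gsta1 show the blue points to the right of the orange ones and Mgst3 shows the reverse, while Nqo1, Prdx2 and Srxn1 overlap.

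The pair that governs the pathway was not called. Nfe2l2, which encodes NRF2 (chromosome 2, 75675513 to 75704641 of GRCm38), was at 50.3 and 48.2 FPKM in Control and 53.3 and 50.5 FPKM in iRhom1 KO. Its log2 fold change was 0.07 (standard error, SE, 0.0650, limma adjusted p = 0.421). Keap1 was at 6.80 and 8.18 FPKM in Control and 6.56 and 6.45 FPKM in iRhom1 KO (log2 fold change -0.18 with SE 0.105, limma adjusted p = 0.237). Nfe2l2 RNA was thus 5.90 to 8.14 times as abundant as Keap1 RNA in the 4 libraries. RNA levels do not show how much NRF2 protein is present, since KEAP1 acts on the protein. Nqo1, a quinone reductase and one of the most used reporters of NRF2, was low in all libraries at 1.68 and 1.66 FPKM in Control and 1.59 and 1.76 FPKM in iRhom1 KO. Its groups overlapped, with a log2 fold change of 0.00 (SE 0.0841, limma adjusted p = 0.984).

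Antioxidant response elements were looked for in the promoters of the members, since NRF2 binds there. The motif searched was TGACNNNGC on either strand, in RefSeq windows (GRCm38.p6) from 250 bases before to 50 bases after each start site. Windows were found by symbol for 34 of the 39 members, and 9 of these genes (26.5%) held a match, beside 12.4% of all 32851 windows and 14.0% of all 27025 genes with a window. Among tested genes alone the shares were 21.4% of members (6 of 28) and 16.5% of all 6977 with a window. Gclc, Gsr, Gsta4, Gstt2 and Prdx6 had no window and were not searched. Members can have several windows, and a match shows the letters only. The matches of the 6 tested members follow, with the 9 motif bases in capitals and 10 bases on each side, 5′ to 3′ on the strand of the gene.
Prdx1, chr4:116685456-116685484, plus strand: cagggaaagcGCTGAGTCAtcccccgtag
Gclm, chr3:122245413-122245441, plus strand: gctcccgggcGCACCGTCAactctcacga
Nfe2l2, chr2:75704885-75704913, minus strand: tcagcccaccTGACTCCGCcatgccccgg
Sod1, chr16:90220696-90220724, plus strand: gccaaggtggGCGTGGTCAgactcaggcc
Txnrd1, chr10:82859104-82859132, plus strand: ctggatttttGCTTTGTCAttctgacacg
Srxn1, chr2:152105542-152105570, plus strand: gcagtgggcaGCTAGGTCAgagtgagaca
Of these 6 genes, Prdx1 and Sod1 were called lower and the others were not called. In all but Nfe2l2 the printed strand carries the reverse complement of the motif, GCNNNGTCA. The Prdx1 match lies at bases -133 to -125 from its start site, and its letters include TGAGTCA, the reverse complement of the AP-1 motif TGACTCA, which 5.95% of all genes hold on either strand. None of the other 5 matches overlaps that motif. The upstream 250 bases of Prdx1 and of Gsto1, the abundant members with the largest falls, are printed whole to set a promoter with a match beside one without.
Prdx1, chr4:116685349-116685598, plus strand: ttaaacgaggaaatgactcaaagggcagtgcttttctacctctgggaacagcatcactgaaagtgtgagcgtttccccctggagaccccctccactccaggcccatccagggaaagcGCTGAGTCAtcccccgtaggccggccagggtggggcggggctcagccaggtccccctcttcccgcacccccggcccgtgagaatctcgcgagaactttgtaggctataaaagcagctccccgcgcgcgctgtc
Gsto1, chr19:47854723-47854972, plus strand: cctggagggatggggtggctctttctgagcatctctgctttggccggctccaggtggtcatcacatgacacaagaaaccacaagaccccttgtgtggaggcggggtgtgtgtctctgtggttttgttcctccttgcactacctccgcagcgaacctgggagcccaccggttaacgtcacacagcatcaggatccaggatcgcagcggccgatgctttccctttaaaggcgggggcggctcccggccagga
In the Prdx1 window the single match is in capitals. The Gsto1 window has 0 matches. Both are of similar base composition, with 61.6% and 60.0% G and C.

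Of the 4 genes of glutathione synthesis and recycling, Gclc and Gss fell, and Gclm and Gsr were not called. Gclc encodes the catalytic subunit of glutamate cysteine ligase (chromosome 9, 77754535 to 77794485) and fell from 27.9 and 25.9 FPKM to 19.4 and 16.1 FPKM. This is 0.659 times the Control mean, with a log2 fold change of -0.59 (SE 0.112, limma adjusted p = 0.0239). Without S20 the value was -0.46 and the call was lost (limma adjusted p = 0.0564).
Gclm, the modifier subunit that raises the activity of the ligase, was at 9.98 and 9.48 FPKM in Control and at 7.22 and 3.25 FPKM in iRhom1 KO. Both KO libraries lay below both Control libraries, but S20 was far below S18. The log2 fold change of -0.93 therefore had a standard error of 0.359 and was not called (limma adjusted p = 0.116). It was -0.41 without S20, and -1.45 without S18, where it was called (limma adjusted p = 0.0362). The ratio of Gclm to Gclc FPKM was 0.358, 0.366 and 0.373 in S17, S19 and S18, and 0.202 in S20.
Gss, the synthetase that adds glycine to finish glutathione, fell from 8.47 and 8.35 FPKM to 5.87 and 6.72 FPKM (log2 fold change -0.39 with SE 0.0873, limma adjusted p = 0.0341). Its call was lost under both scalings, without a filter, with chromosome medians subtracted, and without S17, S19 or S18, where the log2 fold changes were -0.38, -0.40 and -0.30. Gsr, the reductase that restores glutathione with NADPH, was at 37.9 and 38.0 FPKM in Control and 37.7 and 35.4 FPKM in iRhom1 KO (log2 fold change -0.05, limma adjusted p = 0.547). The summed FPKM of these 4 genes were 84.2 and 81.7 in Control and 70.2 and 61.5 in iRhom1 KO. For a sum of this kind an exact permutation test of 2 libraries against 2 gives a two-sided p = 0.333, the smallest that it can reach.

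The thioredoxin system, which reduces peroxiredoxins and ribonucleotide reductase, had no called member. Txn1, cytosolic thioredoxin, was the most abundant member in both groups, at 337 and 326 FPKM in Control and 401 and 378 FPKM in iRhom1 KO. Its groups did not overlap and its log2 fold change was 0.23 (SE 0.0658, limma adjusted p = 0.0599). It was called higher with trimmed mean scaling (0.34, limma adjusted p = 0.0214) and with chromosome medians subtracted (0.25, limma adjusted p = 0.0441). The 35 tested genes within 5 Mb of Txn1 on chromosome 4 had a median log2 fold change of 0.36, the highest of any tested member's surroundings and above the value of Txn1 itself.
Txnrd1, the selenium-containing reductase of thioredoxin, was at 37.6 and 38.6 FPKM in Control and 35.3 and 31.6 FPKM in iRhom1 KO (log2 fold change -0.19, limma adjusted p = 0.134). Srxn1, the sulfiredoxin that repairs overoxidized peroxiredoxins, was at 38.9 and 38.2 FPKM in Control and 41.1 and 37.2 FPKM in iRhom1 KO (log2 fold change 0.02, limma adjusted p = 0.848). The FPKM ratio of Txn1 to Txnrd1 was 8.96 and 8.46 in Control and 11.4 and 11.9 in iRhom1 KO.

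Among the peroxiredoxins, thiol enzymes that reduce hydrogen peroxide, Prdx1 and Prdx6 fell and Prdx4 rose. Prdx1, the main cytosolic form (chromosome 4, 116685544 to 116700822), was at 183 FPKM in both Control libraries and at 92.4 and 86.9 FPKM in the KO libraries. This is 0.490 times the Control mean and a log2 fold change of -1.03 (SE 0.0627, limma adjusted p = 0.00423). The call held in every alternative except the test against a minimum fold change of 1.5 (adjusted p = 0.0522, limma treat). Prdx1 ranked 2 among the members by mean FPKM in Control and 5 in iRhom1 KO.
Prdx6, which also has phospholipase activity (chromosome 1, 161240112 to 161251219), fell from 64.0 and 60.8 FPKM to 40.9 and 44.0 FPKM. Its log2 fold change was -0.55 (SE 0.0701, limma adjusted p = 0.0108). Prdx4, the peroxiredoxin of the endoplasmic reticulum, was higher at 59.3 and 56.3 FPKM in iRhom1 KO than at 46.1 and 45.1 FPKM in Control (log2 fold change 0.34 with SE 0.0616, limma adjusted p = 0.0225). Its call was lost without S17, S19 or S18, where the log2 fold changes were 0.35, 0.32 and 0.30.
The mitochondrial Prdx3 (log2 fold change 0.10, limma adjusted p = 0.243) and the cytosolic Prdx2 (0.02, limma adjusted p = 0.844) were not called. Prdx5, found in mitochondria and peroxisomes, was at 26.2 FPKM in S17, 40.4 FPKM in S19, and 37.5 and 40.9 FPKM in iRhom1 KO, so the Control libraries differed more from each other than the groups did. It was not called (log2 fold change 0.26 with SE 0.219, limma adjusted p = 0.396), but without S19 it was called higher (0.57), and without S17 the value was -0.04.
The 6 peroxiredoxins together summed to 485 and 490 FPKM in Control and 399 and 401 FPKM in iRhom1 KO. Prdx1 made up 37.8% and 37.3% of that sum in Control and 23.2% and 21.7% in iRhom1 KO. Prdx3, at 24.1% and 23.3%, was the largest part in iRhom1 KO cells.

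Of the 3 glutathione peroxidases with a row, Gpx8 and Gpx1 fell and Gpx4 was not called. Gpx8, anchored in the membrane of the endoplasmic reticulum (chromosome 13, 113042753 to 113046410), fell from 119 and 116 FPKM to 78.9 and 75.2 FPKM. Its log2 fold change was -0.61 (SE 0.0609, limma adjusted p = 0.00789). The tested genes of chromosome 13 had a median of -0.37, and the 22 within 5 Mb of Gpx8 a median of -0.17. With chromosome medians subtracted Gpx8 was still called, at -0.22.
Gpx1, the cytosolic selenoenzyme that reduces hydrogen peroxide, was at 122.8 and 125 FPKM in Control and at 83.5 and 102 FPKM in iRhom1 KO (log2 fold change -0.43 with SE 0.110, limma adjusted p = 0.0473). This call was lost under both scalings, without a filter, with chromosome medians subtracted, and without S17, S19 or S18, where the log2 fold changes were -0.44, -0.41 and -0.29. Gpx4, which reduces lipid peroxides in membranes and so guards against ferroptosis, was at 179.8 and 179.5 FPKM in Control and 157 and 167 FPKM in iRhom1 KO. The groups did not overlap and the log2 fold change was -0.15 (SE 0.0630, limma adjusted p = 0.137). Gpx4 held 42.6% of the FPKM of the 3 genes on average in Control and 48.9% in iRhom1 KO.
Of the dismutases and catalase, Sod1 alone was called. This copper and zinc enzyme of the cytosol fell from 45.3 and 48.0 FPKM to 39.1 and 34.7 FPKM (log2 fold change -0.33 with SE 0.0846, limma adjusted p = 0.0457). The call was lost under both scalings, without a filter, and without S17, S19 or S20, at -0.38, -0.29 and -0.25. Sod2, the mitochondrial manganese enzyme, lay at 8.69 and 8.53 FPKM in Control and 7.86 and 7.08 FPKM in iRhom1 KO (log2 fold change -0.19, limma adjusted p = 0.127), on chromosome 17, where the median was -0.38. Catalase (Cat) was at 18.01 and 17.2 FPKM in Control and 18.3 and 18.6 FPKM in iRhom1 KO (0.07, limma adjusted p = 0.431).

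**Figure D2:**
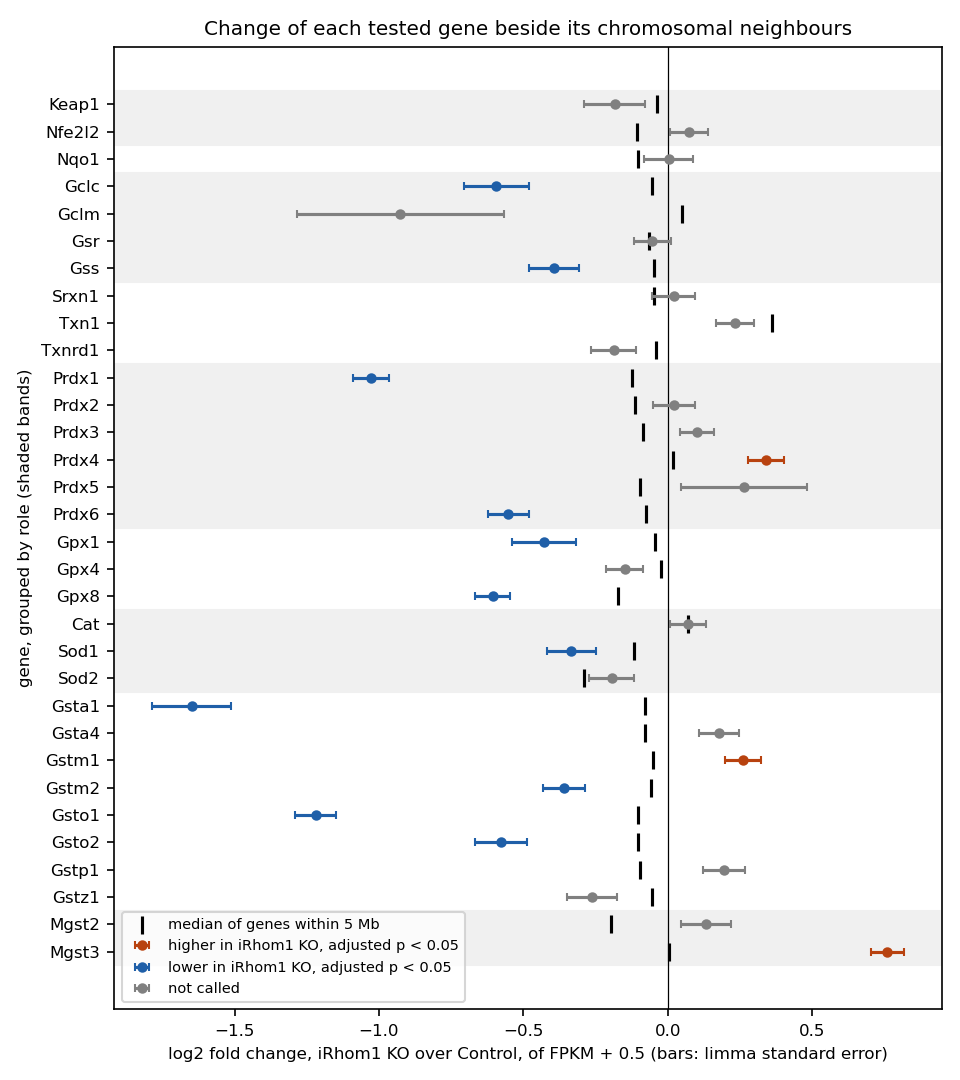
Log2 fold change of each tested gene (point, bar: limma standard error), iRhom1 KO over Control, on FPKM plus 0.5. Blue genes were called lower, orange genes higher and grey genes neither, and black ticks are the median change of other tested genes within 5 Mb. All 11 lower genes lie below their tick, which partly follows from their being called lower. Txn1 lies below a tick of 0.36.

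The glutathione transferases, which attach glutathione to electrophiles and drugs, changed in both directions. Of 8 tested cytosolic transferases 4 fell and Gstm1 rose, beside 21.9% lower and 10.7% higher among all genes tested. Gsto1 (chromosome 19, 47854970 to 47864790) is an omega class enzyme that reduces dehydroascorbate and methylated arsenicals. It was at 126 and 117 FPKM in Control and 53.5 and 50.6 FPKM in iRhom1 KO. This is 0.427 times the Control mean and a log2 fold change of -1.22 (SE 0.0714, limma adjusted p = 0.00400). The call held under all 13 alternatives, with log2 fold changes from -1.27 to -1.11.
Gsto2, which starts 743 bases after the end of Gsto1, fell from 1.71 and 1.83 FPKM to 0.962 and 1.08 FPKM. The log2 fold change was -0.58 (SE 0.0903, limma adjusted p = 0.0163), and the call was lost without S18 or S20, at -0.52 and -0.63. The 47 other tested genes within 5 Mb had a median of -0.10. Gsto1 RNA was 74.1 and 64.0 times as abundant as Gsto2 RNA in Control and 55.6 and 46.8 times in iRhom1 KO.
Gsta1, an alpha class enzyme (chromosome 9, 78230656 to 78242684), had the largest fall of the tested members. It passed the level for testing in Control only. It was at 2.48 and 2.54 FPKM in Control and 0.578 and 0.357 FPKM in iRhom1 KO, 0.186 times the Control mean. On the scale of FPKM plus 0.5 the log2 fold change was -1.65 (SE 0.137, limma adjusted p = 0.00573). Its neighbour Gsta2, too low for testing, was at 0.141 and 0.140 FPKM in Control and 0.0266 and 0.0793 FPKM in iRhom1 KO. Gsta4, an enzyme for the lipid aldehyde hydroxynonenal in the same 173 kb stretch, was at 16.4 and 16.7 FPKM in Control and 19.6 and 18.1 FPKM in iRhom1 KO. It was not called (log2 fold change 0.18, limma adjusted p = 0.121), although trimmed mean scaling (0.28) and quantile normalization (0.31) each made it a higher call.
The mu class genes Gstm1 and Gstm2, within 91.6 kb of chromosome 3 with 3 low members, moved in opposite directions. Gstm1 rose from 22.03 and 21.2 FPKM to 25.5 and 26.5 FPKM (log2 fold change 0.26 with SE 0.0625, limma adjusted p = 0.0407). Its call was lost without a filter, with chromosome medians subtracted, and without any one of the 4 libraries, at 0.23 to 0.29. Gstm2 fell from 23.6 FPKM in both Control libraries to 19.2 and 17.4 FPKM (-0.36 with SE 0.0740, limma adjusted p = 0.0288), and its call did not hold without S17, without S19 or without S20, at -0.36, -0.36 and -0.29. It was also lost with quantile normalization, at -0.23 (limma adjusted p = 0.0620), and without a filter. The FPKM ratio of Gstm1 to Gstm2 was 0.934 and 0.898 in Control and 1.33 and 1.52 in iRhom1 KO. Gstm7, below the level for testing, was at 0.172 and 0.224 FPKM in Control and 0.666 and 0.714 FPKM in iRhom1 KO. These paralogs are similar in sequence, and how shared reads were divided between them is not stated, so values within the mu and alpha classes are uncertain.
Gstp1, the pi class enzyme often raised in tumours, was at 55.4 and 59.6 FPKM in Control and 63.7 and 67.9 FPKM in iRhom1 KO (0.19, limma adjusted p = 0.109), and Gstz1, which isomerizes maleylacetoacetate, had a log2 fold change of -0.26 (limma adjusted p = 0.0856). The cytosolic transferases summed to 252 and 247 FPKM in Control and to 187 and 186 FPKM in iRhom1 KO. Gsto1 made up 50.1% and 47.4% of the sum in Control and 28.6% and 27.1% in iRhom1 KO, where Gstp1 was the largest part at 34.1% and 36.5%.
The microsomal enzyme Mgst3, a membrane transferase and peroxidase (chromosome 1, 167371966 to 167393841), had the largest rise of the tested members. It was at 28.4 and 27.8 FPKM in Control and 47.4 and 48.6 FPKM in iRhom1 KO, 1.71 times the Control mean. The log2 fold change was 0.76 (SE 0.0585, limma adjusted p = 0.00547), and the 60 other tested genes within 5 Mb had a median of 0.00. Mgst2, which can make leukotriene C4, was not called (0.13, limma adjusted p = 0.295).

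**Figure D3:**
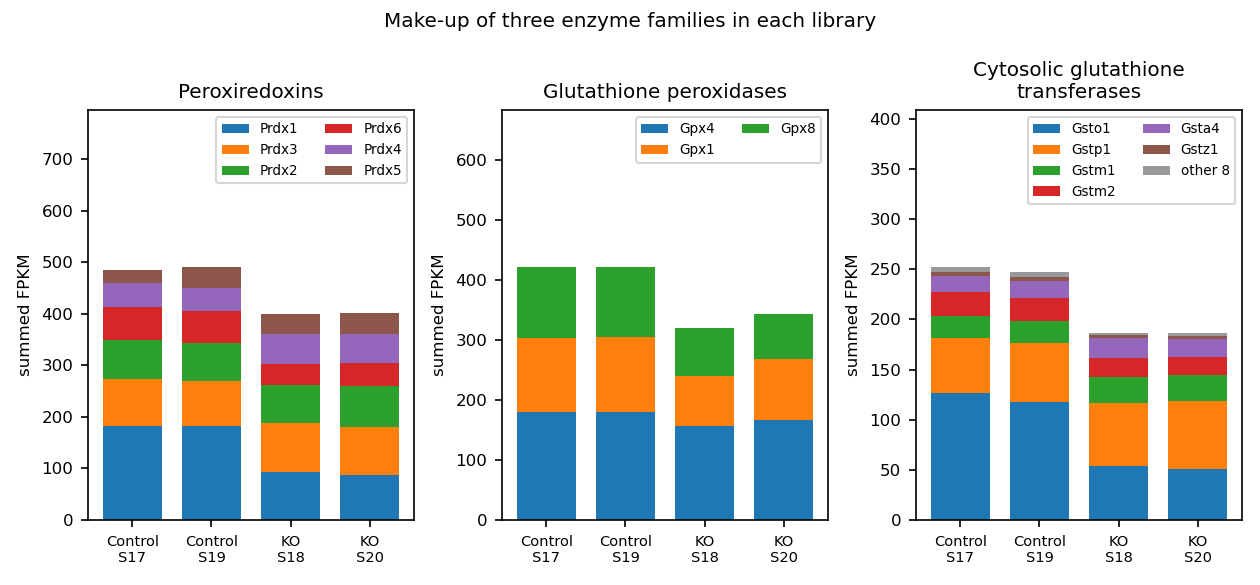
Summed FPKM of the peroxiredoxins, glutathione peroxidases and cytosolic glutathione transferases in each library, stacked by gene. The bars of the KO libraries are shorter in each panel (399 and 401 against 485 and 490 FPKM for the peroxiredoxins), and the Prdx1 and Gsto1 segments shrink most.

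All 39 members together summed to 1819 and 1807 FPKM in Control and 1632 and 1611 FPKM in iRhom1 KO, 0.894 times the Control mean. Within a group the SD of the sum was 8.24 FPKM for the 2 Control libraries and 14.6 FPKM for the 2 KO libraries. After trimmed mean scaling the sums were 1760.0 and 1733 against 1653 and 1714, a ratio of 0.964. The scaled ratio was 0.884 for the peroxiredoxins (0.820 unscaled) and 0.849 for the glutathione peroxidases (0.787 unscaled). It was 0.805 for the cytosolic transferases (0.747 unscaled) and 0.854 for glutathione synthesis and recycling (0.793 unscaled). The dismutases and catalase were at 0.93 (0.863 unscaled). Other groups had higher sums in iRhom1 KO. The scaled ratio was 1.22 for the thioredoxin system (1.13 unscaled) and 1.76 for the microsomal transferases (1.63 unscaled). For the regulators Nfe2l2 and Keap1 it was 1.11 (1.03 unscaled, where the groups overlapped). Nqo1 was at 1.08 after scaling, with overlapping groups. Chromosomes 5, 13, 15 and 17 were lower as a whole, with medians of their tested genes from -0.38 to -0.22. Among the 32 tested members 2 lie on them, Gpx8, which was called lower, and Sod2, which was not called.

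The other genes of the pathway, listed from general knowledge, also went both ways. Of 25 tested NRF2 targets outside the rule 9 were lower (36.0%) and 5 higher (20%), with a median log2 fold change of 0.04, beside 21.9% lower and 10.7% higher among all genes tested. The higher ones were led by Aldh3a1, an aldehyde dehydrogenase that rose from 7.92 and 9.14 FPKM to 25.9 and 28.0 FPKM (log2 fold change 1.60 with SE 0.0955, limma adjusted p = 0.00404). Ptgr1, a reductase of lipid enones, was at 0.86 beside a median of 0.36 for its neighbours within 5 Mb, and Idh1, a source of NADPH, at 0.45 (call lost without S17, at 0.45). Slc7a11, the cystine importer that feeds glutathione synthesis, was at 2.45 and 2.46 FPKM in Control and 3.36 and 3.43 FPKM in iRhom1 KO (0.40 with SE 0.0697, limma adjusted p = 0.0208), a call lost without any one of the 4 libraries, at 0.38 to 0.41.
The lower ones included Abcc4, an exporter of conjugates (-0.93), and the purine oxidase Xdh (-0.76, beside -0.39 for its neighbours on chromosome 17). Also lower were the retinal dehydrogenase Aldh1a1 (-0.79) and the pentose phosphate enzyme Pgd (-0.79). Aldh1a1, at 1.98 and 1.82 FPKM in Control and 0.955 and 0.826 FPKM in iRhom1 KO, passed the level for testing in Control only. Its call, counted among the lower targets, thus partly follows from that filter. The ferritin chains, chosen for mention after their values were seen, were lower too. Fth1 fell from 170 and 178 FPKM to 115 and 79.0 FPKM (-0.86 with SE 0.192, limma adjusted p = 0.0344). Ftl1 was at 258 and 289 FPKM in Control and 177 and 210 FPKM in iRhom1 KO (-0.50, limma adjusted p = 0.0363), and its call was lost without S19, S18 or S20, at -0.42, -0.38 and -0.63. Hmox1, the heme oxygenase that NRF2 and BACH1 control, was near 0, at 0.0203 and 0.00159 FPKM in Control and 0.00330 FPKM and 0 in iRhom1 KO.

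In the list of partners of NRF2 and KEAP1, 4 of 13 tested genes were lower (30.8%, against 21.9% of all genes tested) and 1 was higher (7.69%, against 10.7%). The quinone reductase Nqo2 (-0.87) and Rbx1, the ring subunit of the CUL3 ligase (-0.70), lie on chromosomes 13 and 15, where their neighbours had medians of -0.32 and -0.41. Pgam5 (-0.31) and Dpp3 (-0.26), both known to bind KEAP1, were lower. Pgam5 lies on chromosome 5 beside a neighbour median of -0.22, and the neighbours of Dpp3 had a median of -0.11. The call of Pgam5 was lost without S17, S19 or S20, at -0.32, -0.31 and -0.31. That of Dpp3 was lost without any one of the 4 libraries, at -0.28 to -0.23. Nfe2l1, the related factor that drives proteasome genes, was at 0.61 (limma adjusted p = 0.0497), a call lost without S17, S18 or S20, at 0.45, 0.76 and 0.47.
Of the genes of glutathione turnover and supply, 5 of 13 were lower (38.5%, against 21.9% of all genes tested) and 1 was higher (7.69%, against 10.7%). Abcc5, an exporter, was at -0.55, and the glyoxalases Glo1 (-0.52) and Hagh (-0.31) lie on chromosome 17, with neighbour medians of -0.37 and -0.41. The call of Hagh was lost without any one of the 4 libraries, at -0.33 to -0.29, as was that of the peptidase Lap3 (-0.26), at -0.28 to -0.25. Ethe1, a mitochondrial persulfide dioxygenase, was higher at 0.54 and lost its call without S20, at 0.52.
Of the thioredoxin and glutaredoxin family 4 of 16 were lower, 25.0% against 21.9% of all genes tested, and 0 were higher, against 10.7%. Txn2, mitochondrial thioredoxin, fell from 7.76 and 9.18 FPKM to 3.61 and 2.43 FPKM (-1.37 with SE 0.195, limma adjusted p = 0.0134), on chromosome 15, where its neighbours had a median of -0.41. Sesn1, a sestrin that p53 induces, was at -0.61, Msrb1, a methionine sulfoxide reductase on chromosome 17, at -0.51 beside a neighbour median of -0.40, and the iron-sulfur glutaredoxin Glrx5 at -0.44. The call of Glrx5 was lost without S17 or S19, at -0.43 and -0.45.
Of the factors that make selenoproteins such as Gpx1, Gpx4 and Txnrd1, 3 of 9 were lower (33.3%, against 21.9% of all genes tested) and 1 was higher (11.1%, against 10.7%). Secisbp2, which binds the selenocysteine element of their messenger RNA, fell from 3.94 and 3.93 FPKM to 1.87 and 1.89 FPKM (-0.90 with SE 0.0697, limma adjusted p = 0.00547), on chromosome 13 beside a neighbour median of -0.41. Sephs2 (-0.35) and Sephs1 (-0.36) were lower, and Eefsec, the elongation factor for selenocysteine, was higher (0.33). These 3 calls were lost without S17, S19 or S20, at -0.34, -0.37 and -0.32 for Sephs2, -0.33, -0.40 and -0.32 for Sephs1, and 0.33, 0.33 and 0.30 for Eefsec.
Of the oxidant producers only 3 reached the level for testing. Of these 2 were lower (66.7%, against 21.9% of all genes tested) and 0 were higher, against 10.7%. Xdh, also in the list of targets, and the monoamine oxidase Maoa (-0.32, call lost without S17, S19 or S20, at -0.30, -0.34 and -0.30) were lower, and the NADPH oxidase subunit Cyba was not called (-0.31, limma adjusted p = 0.0565).

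**Figure D4:**
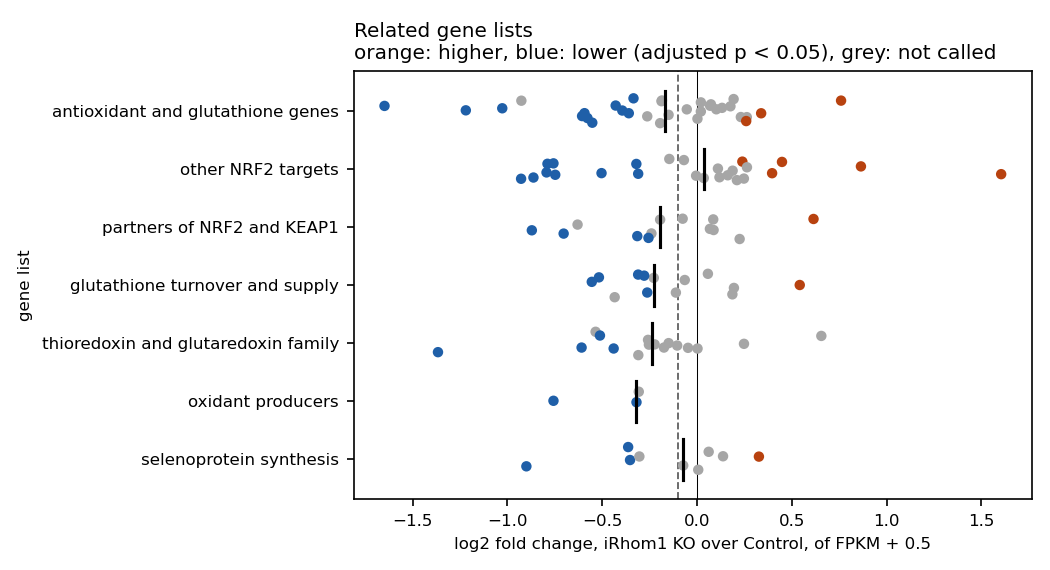
Log2 fold change of each tested gene (point) of the antioxidant and glutathione genes and 6 related lists, iRhom1 KO over Control, on FPKM plus 0.5. Orange genes were called higher, blue genes lower and grey genes neither. Black bars are list medians, from -0.32 for 3 oxidant producers to 0.04 for 25 other NRF2 targets, and the dashed line is the median of all genes tested, at -0.10.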

How the data were processed

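Bulk RNA sequencing of CT26 cells gave 2 Control and 2 iRhom1 KO libraries. The authors deposited FPKM per gene symbol, for which the submitters' processing notes name HISAT2, StringTie and GRCm38. Versions and annotation are not given in the sources used here, nor is any further scaling of the libraries. Read counts were not used here, so no counting intervals are given. The columns name a group and a library tag, and the study's figure legends call its RNA-seq panels representative of 2 independent experiments. Whether the libraries of a group are those experiments or separate cultures is not stated, so the p-values rest on a spread that may be technical. The table also holds the authors' fold and log2 columns, which were not used. Of 21724 rows, 19 whose name had become a number were left out, and 54 rows of 26 shared symbols were summed.

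Log2 of FPKM plus a pseudocount of 0.5 was tested with limma 3.58.1 in R 4.3.3, two-sided, with a variance trend, for genes that averaged 1 FPKM or more in either group. Benjamini-Hochberg adjustment covered all 10271 genes tested, at a threshold of 0.05. Fold changes on this scale understate those of low genes. Positions came from GENCODE M21 (GRCm38), and medians of neighbours from other tested genes within 5 Mb. The depth was estimated from the most frequent size of 1 fragment over single-transcript genes. Only a preset range of depths was searched, and the most frequent bin held 130 to 145 of 3675 to 3776 genes.

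The members and lists were chosen with earlier results of these data known. Every tested member could be named, with each library's FPKM for called members and for the key enzymes. From each other list, up to 4 called genes with the smallest p in each direction were named, with Slc7a11 and Hmox1, and Cyba, Fth1 and Ftl1 were named after their values were seen. Alternatives tried were a pseudocount of 0.1 or 1, a filter at 5 FPKM or none, scaling by trimmed means or by quantiles, the robust option of limma, testing against a fold change of 1.5 (limma treat), subtraction of chromosome medians, and omission of each library.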

Additional observations from a re-analysis of the deposited data

How the results depend on the processing

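No paired analysis was possible because the value columns carry library tags and no replicate numbers. Over the 32 tested members and 13 alternatives (fewer where a filter removed a gene), 347 of the fits kept direction and call, 49 lost a call, 6 gained one and 9 changed sign, none of the last with a call on either side. The sign changes were Gsr at 0.053 with trimmed mean scaling, 0.0574 with quantile normalization and 0.0518 with chromosome medians subtracted, Sod2 at 0.20 with chromosome medians subtracted, and values near 0 with 1 library left out, namely Nqo1 (from -0.0537 without S20, and -0.00255 without S19, to 0.0589 without S18), Prdx2 (from -0.0458 without S20 to 0.0868), Prdx5 (from -0.043 without S17 to 0.569 without S19) and Srxn1 (from -0.0505 without S18 to 0.0919). Gsto1 and Gsta1 were called under every alternative in which they were tested (Gsta1 lay under the filter at 5 FPKM), and Prdx1, Prdx6, Gpx8 and Mgst3 under all but the minimum fold change of 1.5. In the main fit Gsta1 passed the level for testing in Control only.
With trimmed mean scaling 5 members were called higher, 1693 genes higher, and 1 oxidant producer was called. With quantile normalization 7 members were lower, beside 15.1% of all genes tested, and 1 oxidant producer was called. Without a filter 7 of 39 members were lower, beside 7.30% of 21677 genes. In that setting 7 of 28 other NRF2 targets and 3 of 15 partners were called, beside 895 genes higher and 1582 lower. With the filter at 5 FPKM 727 genes were higher, with fewer genes tested. With chromosome medians subtracted 1396 genes were lower and 3 genes of glutathione turnover were called. Against a minimum fold change of 1.5, 60 genes were higher and 84 lower, with 0 members higher, 2 lower (Gsto1 and Gsta1), 1 other NRF2 target called, and 0 genes of the other 5 lists called. At an unadjusted p under 0.05 without that minimum, 16 members and 4820 genes passed. With 1 library left out, where 1 group rests on 1 library that is assumed to vary like the others, members called higher ranged from 1 (without S17 or S18) to 2 and lower from 7 (without S17, S19 or S20) to 9, and genes higher from 561 (without S20) to 745 and lower from 1096 (without S20) to 1713. Called genes ranged from 9 to 10 for other NRF2 targets, 2 to 4 for partners, 2 to 3 for glutathione turnover, 3 to 5 for the thioredoxin family, 1 to 2 for oxidant producers and 1 to 4 for selenoprotein synthesis. Members near 1 FPKM, such as Gsto2, Gsta1 and Nqo1, rest on the fewest fragments.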
